A study of Mus musculus with 2 samples.

Results

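Complex III, complex IV and ATP synthase are the last machines of mitochondrial respiration, and their nuclear genes were read on 2 expression arrays of mouse CD8+ T cells, 1 grown with bezafibrate and 1 with its solvent dimethyl sulfoxide (DMSO). Members were the probe sets annotated with a single gene symbol that starts Uqcr, Cox followed by a digit, or Atp5, together with Cyc1 and Cycs. They were 63 probe sets of the 33793 with values, and stood for 53 genes of the 22180 measured. There were 8 genes of complex III, 17 of complex IV, 17 of ATP synthase, 1 for cytochrome c, 8 cytochrome oxidase assembly factors with symbols from Cox10 to Cox20, and 2 pseudogenes. The genes of the 3 complexes, 42 in all, are called structural subunits here.

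Naive CD8+ T cells of both groups were activated with beads carrying antibodies to CD3 and CD28 and grown with recombinant human interleukin-2 at 100 U/mL, and expansion ran to day 13. The control group received DMSO, and the treated group received bezafibrate, a drug of the fibrate class that lowers blood lipids and acts on the nuclear receptors of the PPAR family, at 30 µM for the whole culture. The labels state no strain, age or number of animals or cultures. The comparison asks which genes differ with the drug. As each group has 1 array, no value has a replicate error, no p-value is given, and each difference is one between 2 arrays.

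Complex III passes electrons from ubiquinol to cytochrome c, complex IV (cytochrome c oxidase) passes them on to oxygen, and both pump protons out of the mitochondrial matrix. ATP synthase lets the protons return and makes ATP. Most subunits are encoded in the nucleus, but the catalytic core of complex IV, cytochrome b of complex III and the proton channel of ATP synthase are encoded in mitochondrial DNA, so both genomes must supply parts. Activated T cells lean on glycolysis, while long-lived memory T cells are known for a high respiratory capacity.

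The nuclear structural subunits were lower with bezafibrate by a small and similar amount in all 3 complexes, and the 3 subunits read from mitochondrial DNA had log2 ratios from 0.00 to 0.20. Of the 42 structural subunits, 36 had a lower signal with bezafibrate (85.7%), 4 a higher one and 2 equal values, against a background of 50% of all genes lower and 44.7% higher (33 or 34 were lower under 3 other scalings of the arrays, and 31 were lower and 9 higher relative to genes of like level and length). Their median log2 ratio, bezafibrate minus control, was −0.17, beside 0.00 for all genes. The medians were −0.20 in complex III, −0.17 in complex IV and −0.17 in ATP synthase. The deposited values put both arrays on a common distribution, so these are differences relative to the other genes, and in a bulk sample fewer cells of a type and less RNA per cell cannot be told apart.

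Gene by gene, most differences were small beside the spread of log2 ratios between these arrays, as they were for most genes. A floor was set at each array's median over all genes (a log2 signal of 4.88 in control and 4.85 with bezafibrate) and had to be passed on at least 1 array; 46 of the 53 members and 37 of the 42 structural subunits did. Among the 11448 genes above the floor, the central 95% of log2 ratios ran from −0.42 to 0.41. The log2 ratios of 1394 olfactory and vomeronasal receptor genes, which served as silent genes, had a robust SD of 0.30. As these genes are dim, this SD does not measure the scatter of brighter members. In size, 34 of the 42 structural subunits had a log2 ratio under this SD, beside 17991 of all 22180 genes. Above the floor it was 29 of 37, beside 9808 of 11448 genes. A member is called clearly lower or higher here when it differed by at least 0.32 on the log2 scale. The word is a label for this limit only, which lies inside the central 95% given above. Of the 46 members above the floor, 8 were clearly lower (17.4%), beside a background of 6.32%, and 0 were clearly higher, beside 5.83%. The background was 12.4% among genes under 10000 bp. Relative to genes of like level and length, 4 of the 46 members were clearly lower in place of 8. No background is given for that adjusted count, so whether it exceeds that of other genes cannot be said. At 1.5-fold the counts were 1 lower (background 0.524%) and 0 higher (0.664%). At 2-fold they were 0 lower (background 0%) and 0 higher (0.0874%).

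Promoters of members that were lower together, and of members that were not, are shown because the genes of the respiratory chain are known targets of the transcription factors NRF1 and GABPA (an ETS factor). RefSeq promoter windows of build GRCm38.p6, from 250 bases before to 50 after the start, were matched to 39 of the 53 members. The 150 bases before the start are printed 5′ to 3′ on the gene's strand. Capitals mark the motifs GCGCANGC (NRF1) and CCGGAAG (ETS) on either strand. Uqcr11, Cox6b1, Atp5d and Cox20 had the lowest log2 ratio of complex III, complex IV, ATP synthase and the assembly factors. Cox16 had the highest of the assembly factors and Atp5b was the ATP synthase gene nearest to 0. Atp5k and Atp5h are printed because they hold both motifs in the whole window and were among the lowest of such genes. Their low ratios are thus part of the choice and say nothing of a link between motif and ratio. Where a gene had several starts, the outermost was used.

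Uqcr11, chr10:80406822-80406971, minus strand: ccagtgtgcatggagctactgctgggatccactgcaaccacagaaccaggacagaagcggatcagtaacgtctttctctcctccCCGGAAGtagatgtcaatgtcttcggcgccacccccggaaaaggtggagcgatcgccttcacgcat
Cox6b1, chr7:30626115-30626264, minus strand: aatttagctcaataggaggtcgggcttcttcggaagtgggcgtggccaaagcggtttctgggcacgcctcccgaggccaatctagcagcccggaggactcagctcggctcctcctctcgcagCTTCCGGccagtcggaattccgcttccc
Atp5d, chr10:80142125-80142274, plus strand: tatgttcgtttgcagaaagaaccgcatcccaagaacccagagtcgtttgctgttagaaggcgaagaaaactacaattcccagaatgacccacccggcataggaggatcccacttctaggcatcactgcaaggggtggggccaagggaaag
Atp5k, chr5:108434400-108434549, minus strand: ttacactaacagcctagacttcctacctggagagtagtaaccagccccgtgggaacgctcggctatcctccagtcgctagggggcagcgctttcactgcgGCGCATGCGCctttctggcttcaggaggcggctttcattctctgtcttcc
Atp5h, chr11:115419920-115420069, minus strand: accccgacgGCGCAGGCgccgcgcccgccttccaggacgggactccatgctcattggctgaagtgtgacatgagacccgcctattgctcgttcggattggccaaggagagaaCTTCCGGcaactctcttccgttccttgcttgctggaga
Atp5b, chr10:128083157-128083306, plus strand: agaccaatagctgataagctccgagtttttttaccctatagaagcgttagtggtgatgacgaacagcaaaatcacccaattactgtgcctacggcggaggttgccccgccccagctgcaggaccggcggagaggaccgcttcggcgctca
Cox20, chr1:178319003-178319152, plus strand: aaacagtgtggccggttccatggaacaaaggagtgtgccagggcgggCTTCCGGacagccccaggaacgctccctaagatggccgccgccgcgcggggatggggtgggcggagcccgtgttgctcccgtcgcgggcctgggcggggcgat
Cox16, chr12:81485138-81485287, minus strand: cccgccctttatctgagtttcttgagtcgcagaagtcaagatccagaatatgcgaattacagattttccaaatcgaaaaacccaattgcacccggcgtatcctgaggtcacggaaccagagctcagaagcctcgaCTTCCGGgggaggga

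The letters of both factors were counted in members and in promoters at large, with no test. Of 28 structural subunits with a window, leaving out isoforms known from other tissues, 11 (39.3%) held the NRF1 letters in the 300 bases, beside 11.2% of all 27025 genes with a window and 22.5% of 8671 protein-coding genes above the floor. The ETS letters were likewise in 11 (39.3%), beside 9.93% and 20.6%. The complexes varied: the NRF1 letters were in 8 of 15 ATP synthase genes, 2 of 4 of complex III and 1 of 9 of complex IV (11.1%), and in 1 of 6 assembly factors (16.7%). Of the 4 tissue isoforms with a window 0 held either motif. The YY1 letters AAGATGGC were in 3 (beside 3.19% and 5.41%), the GC box GGGCGG of SP1 in 10 (beside 38.2% and 68.1%), and the direct repeat read by PPAR and RXR (AGGTCA, 1 base, AGGTCA) in 0 (beside 0.0481% and 0.0577%). Matches of different motifs may overlap. A match says nothing of binding, and a window without one says only that these letters are not in it.

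Members with and without a motif overlapped in their ratios. Structural subunits with the NRF1 letters had a median log2 ratio of −0.18 and those without −0.23. With the ETS letters the median was −0.30 and without −0.17. Of the 6 assembly factors with a window, 5 held the ETS letters, with a median of 0.04, and the 1 without had −0.16. The gene with the lowest ratio, Atp5d, held neither motif. Among the assembly factors, Cox16, with the highest ratio, held both, and Cox20, with the lowest, held the ETS letters. Whether a motif goes with the ratio was not tested.

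**Figure D1:**
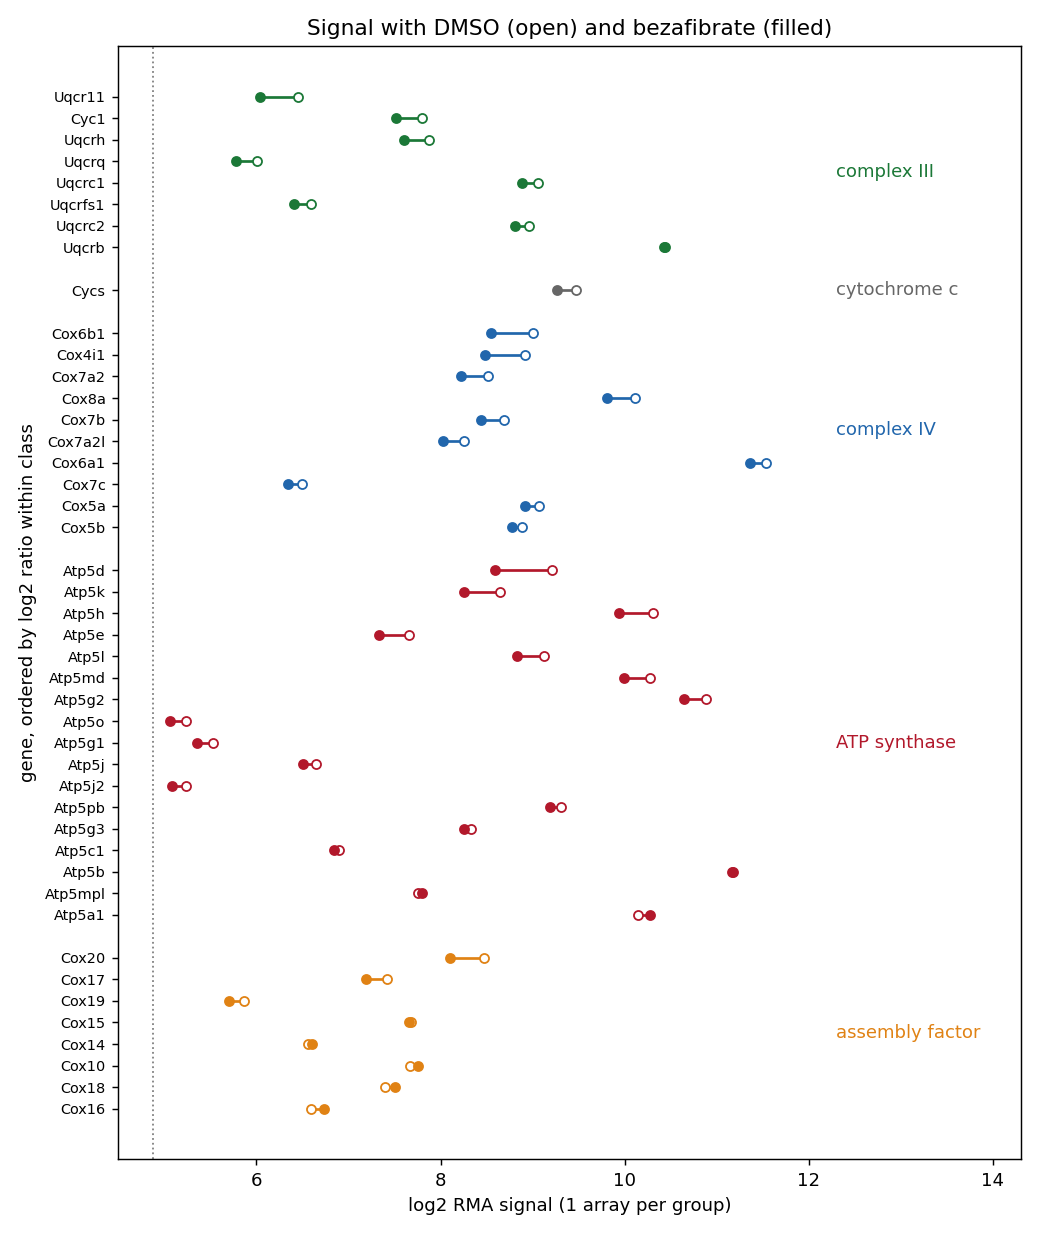
Log2 RMA signal of 44 members on the control array (open circles) and the bezafibrate array (filled circles), 1 array per group, ordered by log2 ratio within each class; the 7 isoforms known from other tissues and the 2 pseudogenes are not drawn, and the dotted line is the control floor of 4.88. Filled circles lie left of open ones in every gene of complex III and complex IV drawn (those of Uqcrb overlap), and right of them for Atp5b, Atp5mpl and Atp5a1 and for Cox14, Cox10, Cox18 and Cox16.

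In complex III all 8 genes were lower, although the difference of Uqcrb, −0.01, was negligible, and turned to 0.04 when the arrays were centred on housekeeping genes and to just above 0 after a loess curve on level. Uqcr11, a small accessory subunit, had a log2 signal of 6.45 in control and 6.04 with bezafibrate (1.33-fold lower), the largest difference of the complex. Cyc1, cytochrome c1, which hands electrons to cytochrome c, read 7.80 and 7.52. Uqcrh, the hinge protein that helps cytochrome c1 meet cytochrome c, read 7.88 and 7.60. The subunits around the electron exit thus both had a log2 ratio of −0.28. Uqcrq, which sits next to cytochrome b, read 6.01 and 5.78. Uqcrfs1, the Rieske iron-sulfur protein, read 6.59 and 6.41. The core proteins, which form the large matrix part, read 9.06 and 8.89 (Uqcrc1) and 8.96 and 8.81 (Uqcrc2), log2 ratios of −0.17 and −0.15, beside −0.17 for Uqcrfs1. Uqcrb, which binds near ubiquinone, read 10.44 and 10.43. Uqcr10 shared its probe set with a second gene and read 5.97 and 5.63, and a shared probe set of Uqcrb read 4.85 and 4.80.

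Cycs, cytochrome c itself, carries electrons from complex III to complex IV and starts apoptosis when it leaves the mitochondrion. It had 5 probe sets, all lower with bezafibrate, and the brightest read 9.47 in control and 9.27 with bezafibrate. The others above the floor had log2 ratios of −0.26, −0.29 and −0.29, the last pair with identical values on each array, and the dimmest, within background, had −0.07.

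Complex IV had 10 genes of subunits used widely across tissues, and all 10 were lower, with a median log2 ratio of −0.24. This direction held under all 3 other scalings tried. Relative to genes of like level and length, 9 of the 10 were below 0, with a median of −0.15, and Cox5b was at 0.03. Cox6b1, which joins the complex into dimers from the intermembrane side, read 9.0 in control and 8.55 with bezafibrate (1.37-fold lower). Cox4i1, the largest nuclear subunit and the one through which ATP slows the enzyme, read 8.92 and 8.48 (1.36-fold lower). These were the 2 clearly lower genes of the 12 complex IV genes above the floor (16.7%). The background was 6.32%, and 12.4% among genes under 10000 bp. Cox7a2 (8.52 and 8.22) and Cox8a (10.11 and 9.81), small membrane subunits, followed with log2 ratios of −0.31 and −0.30. Cox7b read 8.69 and 8.44 on its brighter probe set, and 3.99 and 4.28 on a second within background. Cox7a2l, which links complex III and complex IV in supercomplexes, had −0.23, and Cox6a1, Cox7c, Cox5a and Cox5b ran from −0.17 to −0.10. Cox5a (9.07 and 8.92) and Cox5b (8.89 and 8.78), which sit on the matrix face of the complex, had the smallest differences of the 10 by brightest probe set. A second probe set of Cox5b, within background, read 4.27 and 3.88, a log2 ratio of −0.39. Cox6c was read only by 2 probe sets that also name a pseudogene, with log2 ratios of −0.23 and −0.17.

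The other 7 complex IV members are isoforms known from muscle, lung or testis, and they served to check that the signal fits the labelled cells. Cox6b2, Cox7b2, Cox8b and Cox8c were within background on both arrays, that is under the 95th percentile of the silent genes (4.71 in control and 4.68 with bezafibrate), and Cox4i2 on the bezafibrate array (4.83 and 4.63). Cox7a1 (5.20 and 4.97) and Cox6a2 (4.95 and 4.94), the heart and muscle isoforms, lay just over it. Of the 7, 4 were lower, 1 was higher and Cox8b and Cox8c had equal values, with a median of −0.01. With these isoforms left out, 32 of 35 structural subunits were lower (91.4%), with a median of −0.18.

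Of the 17 ATP synthase genes 14 were lower and 3 higher, and the F1 head, where ATP is made, held both the lowest and the highest log2 ratio. The subunits of its catalytic ring had no lower signal: Atp5a1 (α) read 10.14 in control and 10.27 with bezafibrate, and Atp5b (β) read 11.17 and 11.18. The γ subunit of the turning stalk, Atp5c1, read 6.90 and 6.84. The small subunits at the foot of that stalk were the lowest of the head. Atp5d (δ) read 9.21 and 8.59, 1.53-fold lower, the one member past 1.5-fold, but its second probe set, at 8.30 and 8.07, differed by −0.22, and with the mean over probe sets the 1.5-fold call was lost. Atp5e (ε) read 7.66 and 7.33, and its second probe set differed by −0.12.

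The c ring, which turns as protons pass, is built from one protein made by 3 genes. All 3 were lower, with Atp5g2 at 10.88 in control and 10.65 with bezafibrate, Atp5g1 at 5.53 and 5.35, and Atp5g3 at 8.33 and 8.25. The second probe set of Atp5g2 had a log2 ratio of −0.26, close to the −0.23 of the first.

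Among the other 9 ATP synthase genes, of the membrane part, the outer stalk and the accessory proteins, 8 were lower, with a median log2 ratio of −0.18. The subunits that hold the enzyme in rows of dimers had some of the larger differences: Atp5k (e) read 8.65 and 8.26, and Atp5l (g) read 9.12 and 8.83. Atp5md, a small accessory protein of the same region, read 10.28 and 9.99. Atp5h (d), in the outer stalk, read 10.31 and 9.94 on its brighter probe set. Its second probe set, also above the floor, read 5.44 and 5.98, a log2 ratio of 0.53, so its direction rests on the brighter one. The other outer stalk genes Atp5o (the oligomycin sensitivity protein), Atp5j and Atp5pb had log2 ratios of −0.18, −0.14 and −0.12, and Atp5j2 had −0.14. Atp5mpl, another small accessory protein, read 7.75 and 7.80.

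**Figure D2:**
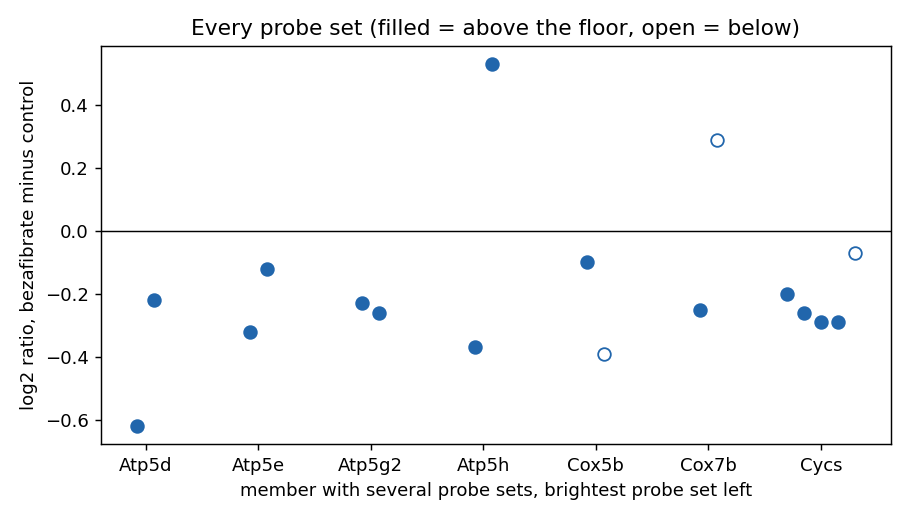
Log2 ratio, bezafibrate minus control, of each of the 17 probe sets of the 7 members that have several, brightest at left; filled points are above the floor and open points below it. Only Atp5h has points above the floor on both sides of 0, at −0.37 and 0.53, and Cox7b has its positive point, 0.29, below the floor.

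The assembly factors, which build complex IV but are not part of it, did not share one direction. Of the 8, 4 were lower and 4 higher (3 and 5 when centred on housekeeping genes, where Cox15 turned), with a median log2 ratio of 0.01, and the difference of medians, structural subunits minus assembly factors, was −0.19. Cox20, which guides the newly made COX2 protein, read 8.47 in control and 8.10 with bezafibrate (1.29-fold lower). The copper carriers Cox17 (7.42 and 7.19) and Cox19 (5.86 and 5.70) were the next lowest. Of the enzymes of haem A synthesis, Cox10 read 7.67 and 7.75 and Cox15 had a log2 ratio of −0.02. Cox18, which inserts part of COX2 in the membrane, read 7.40 and 7.50, Cox14, which binds new COX1, read 6.56 and 6.60, and Cox16, which helps copper reach COX2, read 6.59 and 6.73. Cox11 was read only together with Tom1l1, at 5.48 and 5.54. The ranges overlapped: 36 of the 42 structural subunits had a higher log2 ratio than Cox20, and 41 a lower one than Cox16.

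The difference between structural subunits and assembly factors was smaller relative to genes of like level and length, and smaller against other assembly factors; level and length were adjusted together, and the part of each was not tested. Short genes were lower on the bezafibrate array in general: of 3419 genes above the floor under 10000 bp, 64.6% were lower and 12.4% clearly lower, beside 49.6% of all genes above the floor that were lower. Structural subunits are short, with a median of 6196 bp. The median of Cox10 to Cox20 was 8608 bp, although Cox10 spans 116846 bp and Cox16 126286 bp. Of the 30 structural subunits above the floor under 10000 bp, 27 were lower (90%) and 7 clearly lower (23.3%). When the median log2 ratio of genes of like level and length was subtracted, 29 of the 35 structural subunits without tissue isoforms were still below 0, beside a background of 49.9%, with a median of −0.13. The median of all 42 structural subunits was then −0.12 and that of Cox10 to Cox20 −0.04, so their difference of medians shrank from −0.19 to −0.08. The 25 other measured assembly factors of the 3 complexes, a list that does not follow the Cox numbering, had 19 lower genes and a median log2 ratio of −0.13. The structural subunits thus differed from them by −0.04. With the level and length adjustment the 25 had a median of −0.12, the same as the 42 structural subunits, with 20 below 0 and 5 above.

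**Figure D3:**
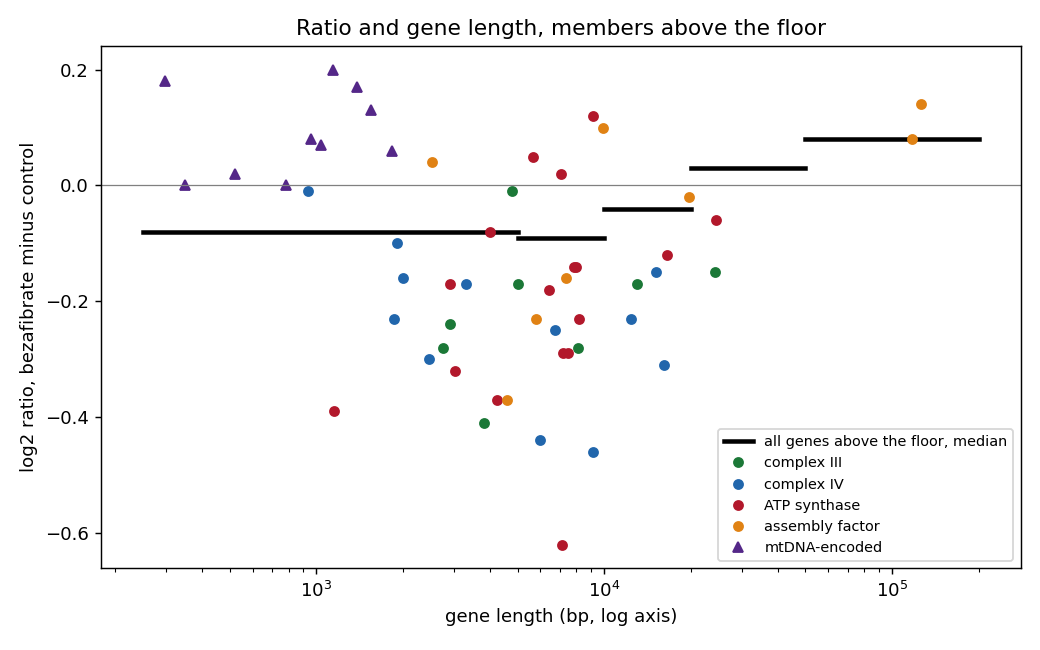
Log2 ratio, bezafibrate minus control, against gene length on a log axis for members above the floor (circles) and genes of mitochondrial DNA (triangles); black bars are medians of all genes above the floor by length class, −0.08 under 5000 bp and 0.08 from 50000 bp, with the outer bars ended at arbitrary lengths. Most structural subunits lie under the bar of their length class, and the long assembly factors Cox10 and Cox16 lie at or close above theirs.

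Within the structural subunits above the floor, the log2 ratio followed neither length nor level closely. Across these 37 genes, which share the 2 arrays and are not independent replicates, Spearman's rho was 0.12 with gene length and 0.02 with mean level, beside 0.28 with length over all genes above the floor. By length, 15 of 15 subunits under 5000 bp were lower, beside 63.3% of all genes above the floor in that class. From 5000 to 10000 bp it was 12 of 15, beside 66.2%. From 10000 to 20000 bp it was 5 of 5, beside 57.5%, and from 20000 to 50000 bp 2 of 2, beside 43%.

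The assembly factors outside Cox10 to Cox20 held both the lowest and the highest log2 ratio of all 33. Higd2a, a factor of complex IV and supercomplexes, read 8.38 in control and 7.97 with bezafibrate, and Coa6, a copper factor, 6.72 and 6.38. Lrpprc, which stabilises the messenger RNAs of mitochondrial DNA, read 7.58 and 8.07, a log2 ratio of 0.49. Of these 25 factors, 2 were clearly lower (8%, background 6.32%) and 1, Lrpprc, clearly higher (background 5.83%), so both counts were near the background. Of 6 complex III factors 5 were lower, among them Bcs1l, which inserts the Rieske protein, at 6.66 and 6.41. Of the ATP synthase factors, Tmem70, which helps to build the c ring, read 7.03 and 6.79, and Atpaf1, a chaperone of the β subunit, had a log2 ratio of 0.13. Atpif1, the inhibitor of the enzyme's reverse action, read 7.60 on both arrays.

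Genes of mitochondrial DNA did not share the lower signal of the nuclear subunits. Of the 10 protein genes of mitochondrial DNA with a probe set of their own, 9 were higher with bezafibrate, beside 44.7% of all genes. Some of the 9 were close to 0, with log2 ratios of 0.00 for ND3 and 0.02 for ND6. COX3 was at 11.68 on both arrays (a ratio just under 0 that turned positive under all 3 other scalings). CYTB, cytochrome b of complex III, read 12.07 in control and 12.26 with bezafibrate. COX1, the catalytic subunit of complex IV, read 12.28 and 12.41. The median over the 10 was 0.07, against −0.17 for the nuclear structural subunits, a difference of medians of −0.25. Of the 10, 7 belong to complex I; the 3 of complexes III and IV, CYTB, COX1 and COX3, had a median of 0.13. After quantile normalization the medians were 0.03 over the 10 and 0.04 over the 3. All 10 were within the silent-gene SD, and most lay near the top of the arrays' range (maximum 12.68 in control). The difference from the nuclear subunits could not be tested with 1 array per group. COX2, ATP6 and ATP8 were not analysed here.

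**Figure D4:**
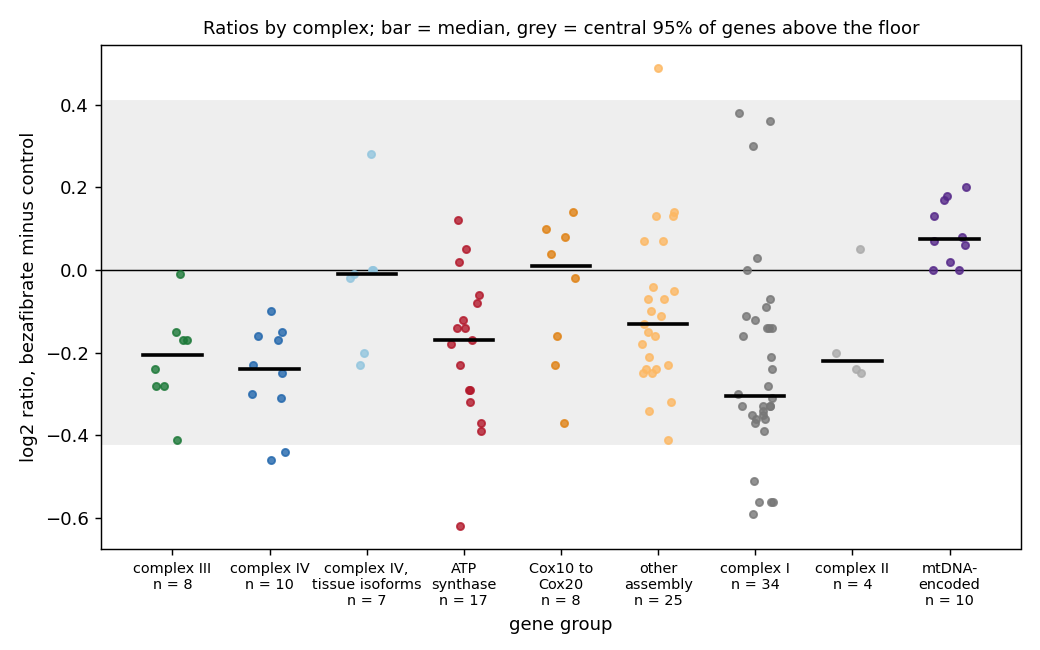
Log2 ratio, bezafibrate minus control, of each gene (points) by group, with the group median (bar) and the central 95% of genes above the floor (grey, −0.42 to 0.41); n is the number of genes, and there is 1 array per group of cells. Complexes III and IV and ATP synthase lie mostly below 0, Cox10 to Cox20 lie on both sides, and genes of mitochondrial DNA lie at or above 0.

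The other nuclear complexes went the same way. Complex I genes, with symbols starting Nduf without the assembly factors, numbered 34, and 29 of them were lower; their median log2 ratio was −0.31, and 16 of the 32 above the floor were clearly lower (50%, background 6.32%) and 1, Ndufs1 with a log2 ratio of 0.36, clearly higher (background 5.83%). Ndufa4, now regarded as a subunit of complex IV in spite of its name, read 8.24 and 8.15. By its symbol it is counted among the 34 and not in complex IV here. The similarly named Ndufa4l2, below the floor at 3.53 and 3.91, is also counted among the 34. Of the complex II genes, Sdhb, Sdhc and Sdhd were lower and Sdha was 0.05 higher, with a median of −0.22. Whether these complexes differ from complexes III and IV and ATP synthase could not be tested with 1 array per group.

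The 2 pseudogenes, Atp5c1-ps (log2 ratio 0.50) and Uqcrh-ps1 (0.23), were within background on both arrays. Genes of the respiratory chain have many processed copies in the genome, and a probe set may also read a near-identical copy; how far this touches the members' values was not tested.

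Markers of the labelled cell type were bright, with Cd8a at 10.82 in control and 10.68 with bezafibrate and Cd3e at 11.10 and 11.05, and all 6 CD8 T cell markers read were lower, with a median log2 ratio of −0.16 and a summed linear signal of 7970 in control and 7180 with bezafibrate. That median is close to the −0.17 of the structural subunits, and its part in their difference was not tested. B cell markers above background numbered 2 of 5 on each array, Ighm (9.05 and 8.72) and Cd79b (5.41 and 4.85), and their list summed to 617 and 495. Of 4 dendritic cell markers only Cd209a was above background, at 9.0 and 8.55, and the list summed to 575 and 433. Of 3 natural killer cell markers only Fcer1g was, at 6.57 and 5.64, and the list summed to 123 and 78.4. Macrophage markers above background were 2 of 5 (summed signal 175 and 178), CD4 T cell markers 1 of 3 (53.8 and 60.2) and neutrophil markers 0 of 4 (61.2 and 50.7). The part of these lists in the members' difference was not tested. No red cell marker was read. Muscle markers above background were 3 of 6 in control and 2 with bezafibrate, and of 3 testis markers only Odf1 (10.75 and 10.45) was.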

How the data were processed

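The authors deposited a log2 signal for each probe set. The submitters' processing notes name RMA and Affymetrix Expression Console; their versions and the genome build are not stated there. RMA subtracts background, equalises the signal distributions of arrays processed together and summarises each set's probes, so shifts shared by most genes are removed and differences of dim genes shrink. The log2 scale was read from the values (0.75 to 12.68 in control, 0.79 to 12.64 with bezafibrate).

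Of 41801 probe sets, 8008 were blank. Of the rest, 23521 named 1 gene, 1814 several and 8458 none in the platform annotation. A gene with several probe sets was represented by its brightest. Lengths came from RefSeq (GRCm38.p6), matched by gene number for 99.1% of genes. For the length adjustment, genes were put in 10 classes of level by 10 of length and each class median was subtracted. The number of arrays, 1 per group, limits the precision.

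Members and lists were chosen with earlier results of these data known. Values of both arrays were named for, in each class, the 3 lowest and 3 highest log2 ratios above the floor, all members that differed by at least 0.32 and those whose probe sets above the floor disagreed in sign; some others are given for their role. Software was pandas 2.3.3 and numpy 2.4.6 under Python 3.11.15, statsmodels 0.14.6 for loess, scipy 1.17.1 for rank correlations and matplotlib 3.10.9 for plots, and the calculations were tested on simulated data.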

Additional observations from a re-analysis of the deposited data

How the results depend on the processing

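Alternatives were another floor or none, other ways to choose between a gene's probe sets, inclusion of those that name several genes, quantile normalization, a loess curve on level (span 0.3), centring on 11 housekeeping genes, the level and length adjustment, means for medians, and leaving out the farthest member or the tissue isoforms. The number of structural subunits lower ran, as a share, from 31 of 42 (level and length adjustment) to 34 of 37 (members above the floor), and their median from −0.23 to −0.12. The medians of complex III ran from −0.24 to −0.13, of complex IV from −0.25 to −0.12, of ATP synthase from −0.23 to −0.13 and of Cox10 to Cox20 from −0.05 to 0.06, on both sides of 0. With the level and length adjustment the difference of medians between structural subunits and Cox10 to Cox20 was −0.08, in place of −0.19, and members lower by at least 0.32 were 4, in place of 8. Members higher by at least 0.32 were 1 with no floor and 1 with each probe set counted, in place of 0. Members at least 1.5-fold lower were 0, in place of 1, with the mean over probe sets, with the smallest ratio over probe sets, when centred on housekeeping genes, with the level and length adjustment and at a 2-fold limit. The log2 ratio of Atp5h was 0.08 with the mean over its probe sets. Apart from the changes that follow from how each alternative is built, the cause was not tested. No paired analysis was possible because each group has 1 array. With 1 array per group no error can be given, so no single gene's difference can be told from the arrays' scatter. The silent-gene SD of 0.30 comes from dim genes and does not measure the scatter of bright ones.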

Other observations

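Regulators of respiratory genes were read beside their targets. Of 10 listed regulators, 8 were higher with bezafibrate, beside 44.7% of all genes, and 2 were lower, beside 50%. Their median log2 ratio was 0.07, and 0 of the 9 above the floor differed by at least 0.32 (background 6.32% lower and 5.83% higher). Nrf1, the transcription factor whose letters were counted in the promoters, read 6.86 in control and 7.15 with bezafibrate, and Gabpa, the DNA-binding part of the ETS factor GABP, read 7.72 and 7.91. Ppargc1b, a coactivator of mitochondrial genes, read 5.30 and 5.59, and Tfb2m, which starts transcription of mitochondrial DNA, read 6.80 and 7.07; its 2 dimmer probe sets had log2 ratios of 0.04 and 1.21. Esrra, a nuclear receptor that acts with these coactivators, read 6.86 and 6.69, and Tfam, which packs mitochondrial DNA, had a ratio of −0.03. Ppargc1a was below the floor at 2.96 and 3.02. Several of these genes are long (Nrf1 spans 105474 bp), and of all genes above the floor from 50000 bp only 31.5% were lower. With the level and length adjustment the median of the list was 0.05, with 8 above 0 and 2 below.

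Hccs, which attaches haem to cytochrome c, read 7.77 in control and 7.82 with bezafibrate, while its substrates Cycs and Cyc1 were lower by 0.20 and 0.28 on the log2 scale.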
